A study of Mus musculus with 58 samples.

Results

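The genes Ifitm1, Ifitm2 and Ifitm3 encode interferon-induced transmembrane proteins, and their counts were followed in single long-term haematopoietic stem cells (LT-HSC) and common myeloid progenitors (CMP) of mouse bone marrow. They were taken by name from a table of 23152 gene symbols, in which all 3 were present and 12887 symbols had a count in at least 1 cell. The table held 58 cells, 34 LT-HSC and 24 CMP. Every cell came from bone marrow of wild-type C57BL/6 mice. LT-HSC were sorted as lineage-negative, Kit-positive, Sca-1-positive cells without Flt3 or CD34, and CMP as lineage-negative, Kit-positive, CD34-positive cells without Sca-1 or CD16/32. The labels name no treatment, animal, age or sex, and they give a passage range of 8 to 10 for cells of both gates. Each gate was therefore treated as 1 sample, no difference between gates has a replicate check, and no test was made.

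IFITM proteins are small membrane proteins of the CD225 family that hinder the fusion of enveloped viruses with the membranes of a cell. IFITM3 sits mainly in endosomes and lysosomes and acts on viruses that enter through them, such as influenza virus, while IFITM1 is found more at the cell surface. Interferon induces these genes in most cells, and stem cells of several tissues express some of them without added interferon. In mouse, Ifitm1 and Ifitm3 were also described in germ cell precursors under the names Fragilis2 and Fragilis.

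The 3 genes lie within 55.934 kb of chromosome 7 on the build GRCm38 (mm10), in the GENCODE M21 annotation. Ifitm2 covers 140954837 to 140955987 on the minus strand, Ifitm1 covers 140967221 to 140969825 on the plus strand, and Ifitm3 covers 141009586 to 141010770 on the minus strand. Their promoters are shown for 1 feature, the interferon-stimulated response element, to which STAT and IRF factors bind. Interferon-induced genes are compared further on, and whether the element relates to any level or correlation given there was not tested. Each RefSeq window (GRCm38.p6) runs from 250 bases before to 50 bases after the annotated start, 5′ to 3′ on the gene's own strand. Capitals mark matches to the response element core, which is GAAA repeated after any 2 bases, and to the gamma-activated site, which is TTC and GAA with any 3 bases between them, searched on both strands.
Ifitm1 promoter, chr7:140967826-140968125, plus strand: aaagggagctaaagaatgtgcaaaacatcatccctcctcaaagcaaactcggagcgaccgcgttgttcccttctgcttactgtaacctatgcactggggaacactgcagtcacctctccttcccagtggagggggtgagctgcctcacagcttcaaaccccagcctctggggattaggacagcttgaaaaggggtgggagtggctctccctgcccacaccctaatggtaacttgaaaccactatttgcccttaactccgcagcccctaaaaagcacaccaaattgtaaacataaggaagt
Ifitm2 promoter, chr7:140955912-140956211, minus strand: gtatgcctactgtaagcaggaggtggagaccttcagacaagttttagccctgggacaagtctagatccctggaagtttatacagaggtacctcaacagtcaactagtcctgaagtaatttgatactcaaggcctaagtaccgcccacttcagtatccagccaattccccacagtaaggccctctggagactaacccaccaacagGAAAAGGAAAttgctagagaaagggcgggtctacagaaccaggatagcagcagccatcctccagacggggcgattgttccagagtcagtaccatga
Ifitm3 promoter, chr7:141010695-141010994, minus strand: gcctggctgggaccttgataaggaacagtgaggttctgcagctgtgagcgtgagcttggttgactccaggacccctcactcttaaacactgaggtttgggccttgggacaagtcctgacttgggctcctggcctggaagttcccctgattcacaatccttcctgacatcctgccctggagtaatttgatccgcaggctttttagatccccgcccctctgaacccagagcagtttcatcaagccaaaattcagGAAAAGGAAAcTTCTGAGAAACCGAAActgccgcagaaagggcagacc
The Ifitm2 window held 1 response element core, at bases 205 to 214 counted from the 5′ end of the window, which is before the start. The Ifitm3 window held 2 of them just after the start, at bases 253 to 262 and 270 to 279. It also held a gamma-activated site at bases 264 to 272, whose end overlaps the later of the 2 cores. Neither motif was present in the Ifitm1 window, which says only that these letters are absent there. The RefSeq start of Ifitm1 that sets this window lies 855 bases downstream of the start of the gene in GENCODE, so the window is inside the gene as given above and the GENCODE start was not searched. For Ifitm2 and Ifitm3 the starts differ by 26 bases. Of 32851 RefSeq promoter windows of this length, 3.44% held the response element core and 8.30% the gamma-activated site. By gene, the core was in a window of 3.99% and the gamma-activated site in one of 9.55% of 27025 genes, and of 35 interferon effector genes with a window 19 held the core and 12 the gamma-activated site. A match is a description of the sequence and not a measured binding site.

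The annotated messages of the 3 genes are alike, so it matters whether a read of one could be counted for another. Coding sequences shared 81.0% of aligned bases between Ifitm1 and Ifitm2, 81.3% between Ifitm1 and Ifitm3 and 79.8% between Ifitm2 and Ifitm3. The libraries captured 3′ ends, and over the last 300 bases the shared part was 67.8%, 67.7% and 71.1% for the same pairs. No stretch of 100 bases in the Ifitm1 or Ifitm3 message occurred in any other annotated transcript. Shorter stretches were shared: the longest identical run was 40 bases for Ifitm1 and Ifitm2, 64 for Ifitm1 and Ifitm3 and 69 for Ifitm2 and Ifitm3. A read that lies within such a run could match both genes, and stretches under 100 bases were not searched in other transcripts. For Ifitm2, 194 of 556 such stretches did, and 19 of 201 in its last 300 bases. They were shared with the read-through transcript Gm45717, which overlaps Ifitm2 on the same strand, and with the gene models Gm11951 and Gm8865, so the Ifitm2 counts are less certain than the others.

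Totals per cell were 45022 to 860553 counts in LT-HSC (median 236774) and 88329 to 706184 in CMP (median 290977). Levels are shares of the counts of a cell or pool, given as CPM, on which 10000 CPM is 1% of all counts. Each interval printed is a 95% one and covers the error of counting alone. Summed over each list, markers followed the gates. LT-HSC markers such as Procr and Hlf made up a median of 7.21 of 10000 counts in LT-HSC (range 0.085 to 21.3). In CMP their median was 0.51 (range 0 to 3.51). By cells with a count, Hlf, Mecom and Fgd5 went the other way. They were counted in 19, 11 and 5 of 34 LT-HSC and in 19, 13 and 6 of 24 CMP. The other LT-HSC markers were counted in a larger share of LT-HSC. CMP markers such as Mpo and Elane made up 6.11 of 10000 counts in LT-HSC (range 0.23 to 24.1). In CMP they made up 54.5 (range 3.52 to 167). Among them Cd34 went the other way, at 254 CPM in LT-HSC (27 cells) and 206 CPM in CMP (24 cells). The other CMP markers were higher in CMP, but Prtn3 still stood at 387 CPM in LT-HSC, against 977 CPM in CMP. Libraries nevertheless fell into blocks by the numbers in their titles. Xist, transcribed from the inactive X chromosome, was counted in 0 of 34 LT-HSC and in 22 of 24 CMP, all but CMP 1 and 2. Genes of the Y chromosome were counted in 32 of 34 LT-HSC, in 2 of 2 of CMP 1 and 2, and in 1 of the 22 other CMP. Sex or source and gate therefore cannot be told apart outside CMP 1 and 2, and the CMP pool joins cells that differ in these genes. LT-HSC 1 to 16 and 17 to 34 were also kept apart, because earlier results of these data had shown that the blocks differ in stem cell genes, a list that then held Ifitm1 and Ifitm3. A difference between these blocks is for that reason a description. Some listed markers of macrophages (5 of 8), B cells (5 of 6) and T or NK cells (6 of 7) had no count in any LT-HSC. The same held for endothelial cells (3 of 7, Cdh5 among them) and stromal cells (4 of 6). In CMP these numbers were 2, 3, 3, 4 and 4, fewer than in LT-HSC for macrophages, B cells and T or NK cells. Other members of the lists were counted, such as Nkg7 at 349 CPM in LT-HSC (20 cells) and 427 CPM in CMP (24 cells). In the LT-HSC pool Cd79b was at 80.8 CPM (14 cells) and Emcn at 42.2 CPM (12 cells), and all 133 Col1a2 counts were in LT-HSC 27. Of 5 basophil or mast cell markers 3 were at 0 in LT-HSC and 0 in CMP, and mature neutrophil markers were at 0 in neither gate, with 2.19 to 6.06 of 10000 counts in LT-HSC and 0.030 to 59.4 in CMP.

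Ifitm1 had the most counts of the 3 genes in the LT-HSC pool and the fewest in the CMP pool. In the pool of LT-HSC 17 to 34, however, Ifitm3 stood above it, at 1992 CPM against 1636 CPM. The LT-HSC pool held 30935 Ifitm1 counts, or 3115 CPM (interval 3080 to 3150), and the CMP pool 3243 counts, or 459 CPM (interval 444 to 475). In single cells the level ran from 56.2 CPM in LT-HSC 17 through a median of 3389 to 15153 in LT-HSC 8, and in CMP from 48.9 in CMP 21 through a median of 165 to 3258 in CMP 19. In LT-HSC 8, LT-HSC 11 and LT-HSC 25 this gene alone made up more than 1% of all counts. The ranges overlapped: 17 of 34 LT-HSC lay above every CMP, 32 lay above the CMP median, and no CMP (0 of 24) reached the LT-HSC median. The pooled log2 ratio of LT-HSC over CMP was 2.76 (interval 2.71 to 2.81), which is 6.78-fold. CMP 19 weighs on this ratio, because it held 43.3% of all Ifitm1 counts of the CMP pool, and without it the log2 ratio was 3.49. The next highest cell, CMP 23, stood at 1278 CPM.

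Within LT-HSC the Ifitm1 level differed between the library blocks. LT-HSC 1 to 16 ran from 1072 CPM in LT-HSC 10 through a median of 6289 to 15153 CPM, and LT-HSC 17 to 34 from 56.2 through 1566 to 10151 CPM in LT-HSC 25. Of LT-HSC 1 to 16, 15 of 16 lay above the median of the other block, and 8 of 18 cells of the other block lay below every cell of 1 to 16. Pooled, the blocks were at 5943 CPM (1 to 16) and 1636 CPM (17 to 34), and the log2 ratio of LT-HSC 1 to 16 over LT-HSC 17 to 34 was 1.86. Against CMP the log2 ratio was 3.69 for LT-HSC 1 to 16 and 1.83 for LT-HSC 17 to 34, so the size of the ratio, but not its direction, depended on the block. Against the 2 CMP without Xist, which pooled to 234 CPM, it was 3.73, and against the other 22 CMP it was 2.61.

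Ifitm3 set the gates apart more evenly from cell to cell. Its pooled level was 2519 CPM in LT-HSC (interval 2488 to 2551) and 698 CPM in CMP (interval 678 to 718), from 25021 and 4928 counts. Among LT-HSC it ran from 640 CPM in LT-HSC 22 through a median of 2811 to 7330 in LT-HSC 25, and among CMP from 74.4 in CMP 20 through a median of 551 to 1807 in CMP 6. Every LT-HSC, 34 of 34, lay above the CMP median, and 27 lay above every CMP, while 14 of 24 CMP lay below every LT-HSC. The pooled log2 ratio was 1.85 (interval 1.81 to 1.90), which is 3.61-fold.

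Between the blocks Ifitm3 differed less than Ifitm1. LT-HSC 1 to 16 ran from 1918 CPM in LT-HSC 10 through a median of 3592 to 5757 in LT-HSC 16, and LT-HSC 17 to 34 from 640 through a median of 2087 to 7330 CPM. All 16 cells of 1 to 16 lay above every CMP, and 11 of 18 cells of 17 to 34 did. Of 10937 genes with at least 20 counts over both pools, Ifitm3 was the only 1 for which every cell of LT-HSC 1 to 16 lay above every CMP, which is 0.00914% of the genes. That count rests on a block whose limits were drawn with results known, and on its lowest cell, LT-HSC 10, being only just above CMP 6. The log2 ratio to CMP was 2.34 for LT-HSC 1 to 16 and 1.51 for LT-HSC 17 to 34, and between the blocks it was 0.82.

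Ifitm2 differed little between the gates. The pooled level was 1413 CPM in LT-HSC (interval 1390 to 1437) and 1132 CPM in CMP (interval 1107 to 1157), from 14034 and 7992 counts. Single LT-HSC ran from 245 CPM in LT-HSC 9 through a median of 1456 to 2815 in LT-HSC 2, and CMP from 281 in CMP 8 through a median of 1227 to 1860 in CMP 17. The ranges overlapped almost fully, with 6 of 34 LT-HSC above every CMP and 4 of 24 CMP above the LT-HSC median. The log2 ratio was 0.32 (interval 0.28 to 0.36), or 1.25-fold, a difference smaller than the spread between cells of either gate. It was 0.24 for LT-HSC 1 to 16 and 0.36 for LT-HSC 17 to 34, and −0.12 between those blocks. Against the 2 CMP without Xist the Ifitm2 log2 ratio was 1.07, but in that comparison the median over all 9993 genes was 0.91, so the gene lay near the bulk of genes there. On the same scale Ifitm1 was at 3.73 and Ifitm3 at 2.30.

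**Figure D1:**
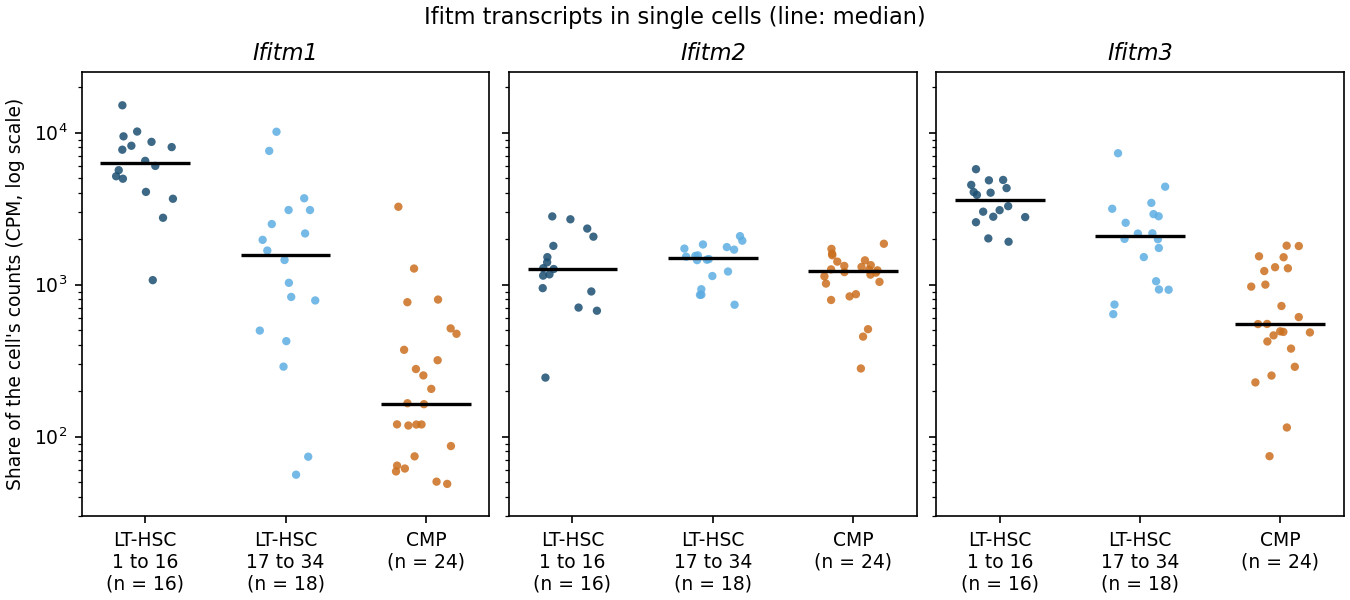
Level of Ifitm1, Ifitm2 and Ifitm3 in each cell, in CPM on a log scale, for LT-HSC 1 to 16 (n = 16), LT-HSC 17 to 34 (n = 18) and CMP (n = 24); a point is a cell and the line is the median. For Ifitm3 all 16 points of LT-HSC 1 to 16 lie above every CMP, for Ifitm1 the CMP have a median of 165 CPM with CMP 19 apart at 3258, and for Ifitm2 the columns overlap.

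At the floor of Ifitm1 the count says little about which cells make the message. Each of the 3 genes was counted in all 34 LT-HSC and all 24 CMP, and the exact binomial lower limits of these shares were 89.7% and 85.8%. With at least 10 counts asked for, Ifitm1 was held by 21 of 24 CMP. S100a8, a gene of mature neutrophils that stem cells should lack, was also counted in all 34 LT-HSC, at 85.2 to 261 CPM with a median of 165. Ifitm1 was below that median in 2 of 34 LT-HSC and 12 of 24 CMP, Ifitm3 in 0 LT-HSC and 2 CMP, and Ifitm2 in 0 of both. S100a9, its partner gene, was counted in all 34 LT-HSC too, at a median of 63.5 CPM, and Ifitm1 was below that in 1 LT-HSC and 4 CMP, and Ifitm2 and Ifitm3 in 0 of both. These levels were measured in LT-HSC, and neutrophil markers varied far more between CMP, as given above. How much of such low Ifitm1 counts came from RNA outside the cell was not tested. After each cell was thinned to 97978 counts, which 30 LT-HSC and 22 CMP held, the median was 306.5 Ifitm1 counts in LT-HSC and 16 in CMP. For Ifitm3 these medians were 264.5 and 55 counts, and for Ifitm2 they were 135 and 117.

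Set against all genes, the ratios of Ifitm1 and Ifitm3 stood out by level more than by size. Of the 3 members, Ifitm1 and Ifitm3 passed 2-fold towards LT-HSC, as did 22.7% of the 10937 genes with at least 20 counts. Ifitm1 also passed 4-fold, as did 13% of these genes, and 15.3% passed it towards CMP. A ratio of this size was thus common, but mostly among genes of low level. Of the 331 genes with 500 CPM or more in a pool, 5.74% passed 2-fold towards LT-HSC and 4.23% towards CMP, and there Ifitm1 ranked 3rd, Ifitm3 4th and Ifitm2 82nd by log2 ratio. Above Ifitm1 were Akap5, which encodes a kinase anchoring protein, at 4.27 and Tmem176a, a membrane protein gene, at 2.79. Next below Ifitm3 was the tetraspanin gene Cd63 at 1.83. By level, Ifitm1 was the 51st most abundant gene of the LT-HSC pool and the 319th of the CMP pool, Ifitm3 the 63rd and the 214th, and Ifitm2 the 111th and the 140th.

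**Figure D2:**
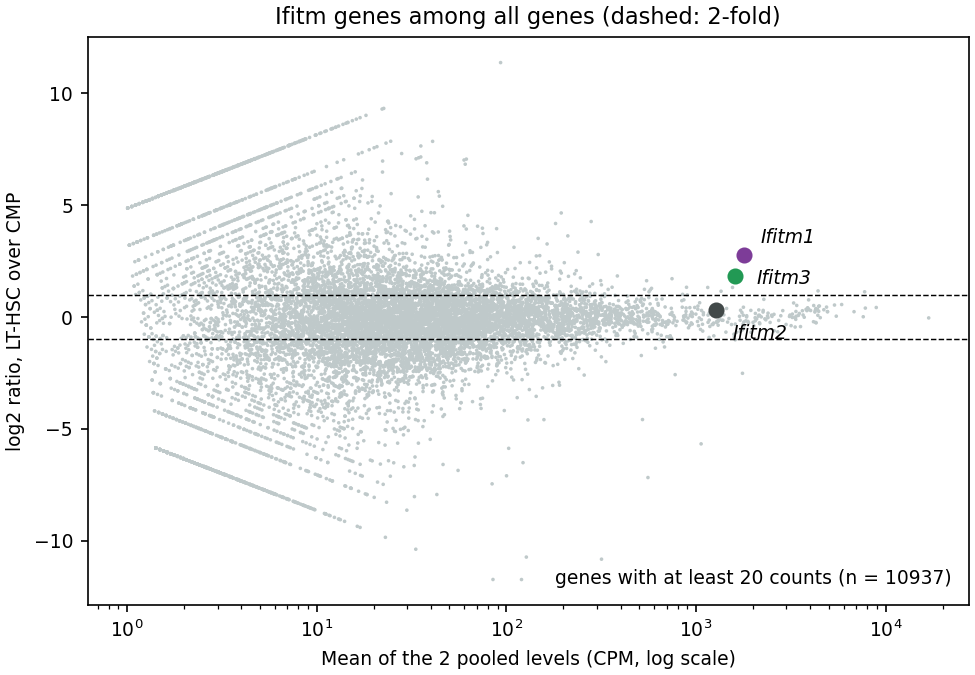
Log2 ratio of LT-HSC over CMP against the mean of both pooled levels in CPM on a log scale, for 10937 genes with at least 20 counts (grey) and the Ifitm genes (large points); dashed lines mark 2-fold. Ifitm1 at 2.76 and Ifitm3 at 1.85 lie at the upper edge of the abundant genes, and Ifitm2 at 0.32 within them.

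The genes also differed in how much single cells varied. In LT-HSC the coefficient of variation across cells was 84.9% for Ifitm1, 39.8% for Ifitm2 and 51.2% for Ifitm3, where counting alone would give 3.58%, 6.26% and 4.36%. In CMP it was 166% for Ifitm1, 33.5% for Ifitm2 and 69.0% for Ifitm3. Without CMP 19 the Ifitm1 value in CMP was 108%. Relative to its mean, Ifitm1 varied less within LT-HSC 1 to 16 (50.2%, SD 3371 CPM around a mean of 6718) than within LT-HSC 17 to 34 (116%, SD 2668 CPM around a mean of 2302), while the SD itself was larger in LT-HSC 1 to 16. Among genes with a mean of at least 500 CPM in LT-HSC 17 to 34, Ifitm1 ranked 304th of 312 from the lowest variation and Ifitm2 22nd, around a median of 54.7%. Ifitm3 ranked 225th there, with 68.1%, and 58th of 261 in LT-HSC 1 to 16, with 30.4%. Among such genes in CMP Ifitm3 ranked 276th of 292 and Ifitm2 115th, around a median of 37.6%.

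The make-up of a cell's Ifitm counts differed between the gates. Of the counts of the 3 genes in the LT-HSC pool, 44.2% were Ifitm1, 20.1% Ifitm2 and 35.7% Ifitm3, against 20.1%, 49.4% and 30.5% in the CMP pool. CMP 19 weighs on the Ifitm1 share, which was 13.1% of the CMP pool without it, and 9.25% in the median CMP. These are shares of 3′ end counts, which are not divided by length and also depend on how well each message was captured, so they compare cells and not the amounts of the 3 messages. Ifitm1 had the most counts of the 3 in 20 of 34 LT-HSC and in 1 of 24 CMP, which was CMP 19. Ifitm2 had the most in 4 LT-HSC and 15 CMP, and Ifitm3 in 10 LT-HSC and 8 CMP. The Ifitm1 share was 55.0% in the pool of LT-HSC 1 to 16 and 32.2% in that of LT-HSC 17 to 34. In the latter pool Ifitm3 had the largest share, 39.2%. Single cells reached 76.9% Ifitm1 in LT-HSC 8 and 66.4% in CMP 19, while LT-HSC 29 had 1.75% and CMP 20 had 90.5% Ifitm2. Together the 3 genes made up 1654 to 19708 CPM of an LT-HSC, with a median of 8520, and 999 to 4905 CPM of a CMP, with a median of 2248.

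**Figure D3:**
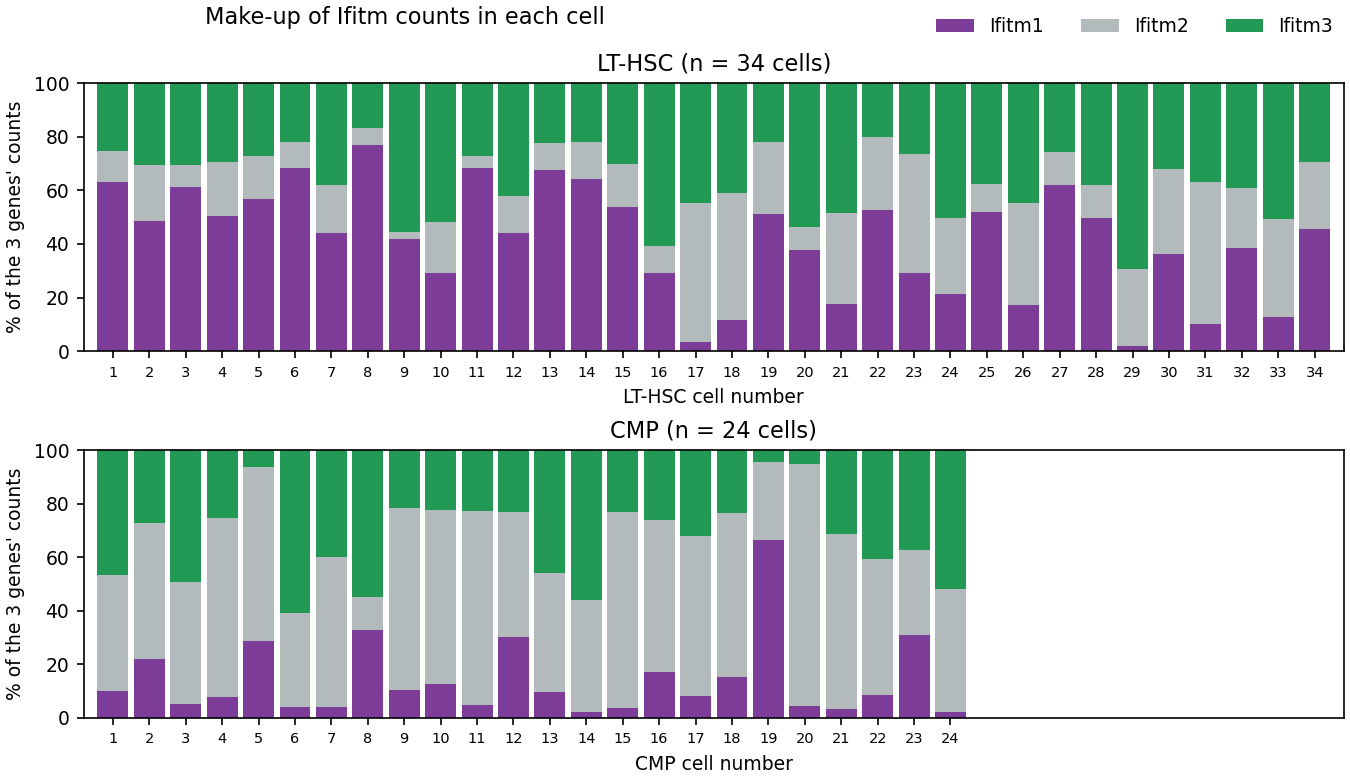
Percent of the counts of the 3 Ifitm genes that belong to Ifitm1, Ifitm2 and Ifitm3, with 1 bar for each of 34 LT-HSC (upper panel) and 24 CMP (lower panel), in order of cell number. Ifitm1 is the largest part in 20 LT-HSC and in 1 CMP, and Ifitm2 in 4 LT-HSC and 15 CMP.

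Although they are neighbours, the 3 genes showed weak relations from cell to cell, apart from Ifitm1 and Ifitm3 in LT-HSC 17 to 34. Relations are given as Spearman correlations within LT-HSC 1 to 16 (n = 16), LT-HSC 17 to 34 (n = 18) and CMP (n = 24), as descriptions, since cells of a set share a gate and a run of cell numbers, differ in depth, and no label says which animal or library pool they came from. CMP 1 and 2 lack Xist and so stand apart within the CMP set. Between Ifitm1 and Ifitm3 the correlation was 0.03, 0.50 and 0.04 in these sets, in that order. Between Ifitm1 and Ifitm2 it was 0.21, 0.06 and 0.19, and between Ifitm2 and Ifitm3 it was 0.12, 0.24 and 0.16. Among 2806 other genes counted in 50% or more of the cells of each set, ranked by the mean of the 3 correlations, Ifitm3 was the 149th most like Ifitm1 and Ifitm2 the 275th. The 5 most like Ifitm1 were Cdk5rap3, Cdipt, Use1, Chtop and Ppp1r15b, with means of 0.435 to 0.396. For Ifitm2 they were Rnf167, Clpp, Cdk5rap3, Cct8 and Nsa2, with 0.445 to 0.380, and for Ifitm3 U2af1l4, Dpm1, Pttg1, Gbp7 and Nucb1, with 0.455 to 0.391. Of these 14 genes, only Gbp7, a guanylate-binding protein gene, is on the list of interferon effectors.

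In both LT-HSC blocks, cells with more counts of interferon effector genes tended to have more Ifitm3. Effectors are the other genes that interferon induces, such as Ifit1, Mx2 and Irgm2, summed per cell over 46 genes with a count. The correlation of Ifitm3 with that sum was 0.72 in LT-HSC 1 to 16, 0.70 in LT-HSC 17 to 34 and 0.29 in CMP (0.33 in CMP 3 to 24). Without the 2 cells of each set farthest from the median sum it was 0.67, 0.61 and 0.37. Psmb8, Psmb9 and Ly6e held 38.8% of the effector counts in LT-HSC, and with these left out of the sum it was 0.73, 0.78 and 0.26. With the full sum the correlation was −0.07, 0.54 and 0.03 for Ifitm1, and −0.05, 0.34 and −0.10 for Ifitm2. With Psmb8, Psmb9 and Ly6e left out it was −0.07, 0.70 and −0.003 for Ifitm1. For Ifitm2 it was then −0.10, 0.04 and 0.19. Whether these correlations differ between genes or sets was not tested. The effector sum itself ran from 11.3 to 74.6 of 10000 counts in LT-HSC 1 to 16, from 22.8 to 58.6 in LT-HSC 17 to 34 and from 14.9 to 46.1 in CMP, with medians of 26.3, 36.6 and 31.5. The sum therefore overlapped widely between sets that differ in Ifitm3.

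Ifitm1 levels tended to be lower in cells that had more counts of cell cycle genes. This correlation was −0.34 in LT-HSC 1 to 16, −0.60 in LT-HSC 17 to 34 and −0.43 in CMP (−0.39 in CMP 3 to 24), and without the 2 farthest cells of each set −0.25, −0.45 and −0.34. With cell cycle genes Ifitm2 was at 0.39, −0.31 and −0.25 and Ifitm3 at −0.14, −0.30 and 0.15, so the negative sign was partly shared. With stem cell genes other than Ifitm the Ifitm1 correlation was 0.27, 0.55 and −0.07. Depth moved with Ifitm1 as well: its correlation with a cell's total count was −0.76 in LT-HSC 1 to 16, −0.37 in LT-HSC 17 to 34 and 0.11 in CMP. With mature neutrophil markers it was 0.71, 0.43 and −0.08. The part of depth and of neutrophil RNA in the Ifitm1 levels within LT-HSC was not tested.

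**Figure D4:**
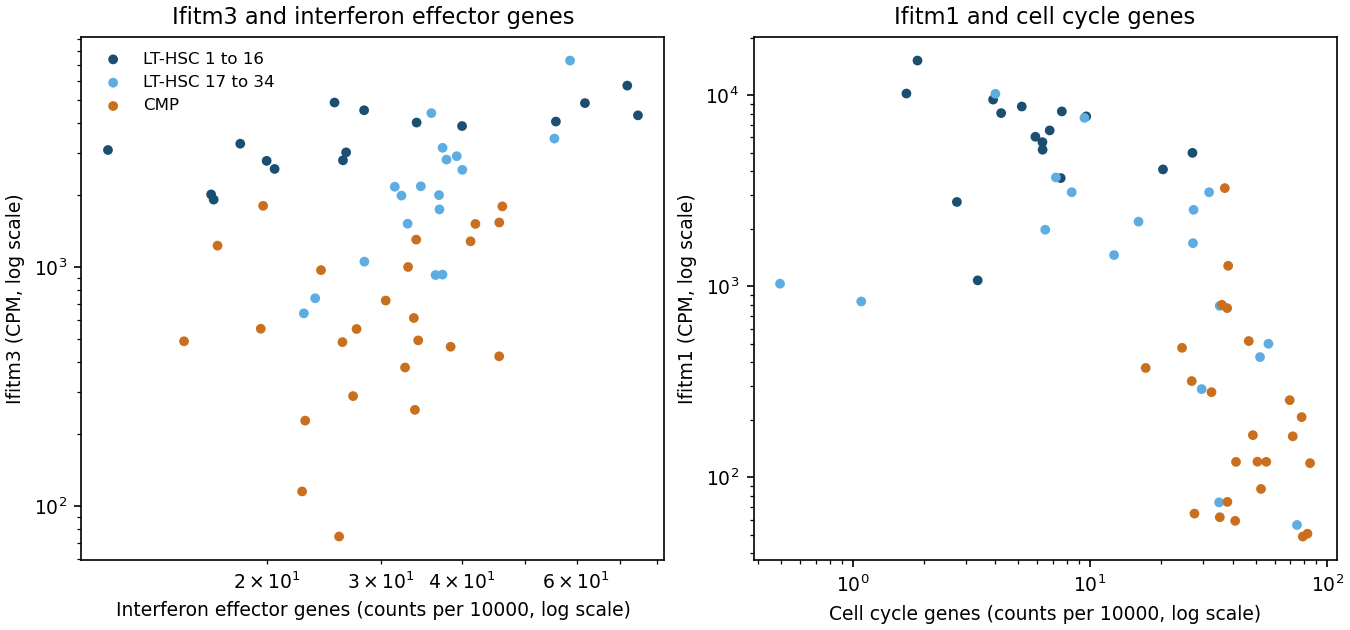
Ifitm3 level against the summed interferon effector genes (left) and Ifitm1 level against the summed cell cycle genes (right), in CPM and in counts per 10000, all on log scales; a point is a cell, coloured by set. Ifitm3 goes up with the effectors within LT-HSC 1 to 16 and 17 to 34 (0.72 and 0.70), and Ifitm1 goes down with the cell cycle genes in LT-HSC 17 to 34 (−0.60).

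The pathway around the family was described from lists, as pooled log2 ratios of LT-HSC over CMP, beside a median of −0.13 over all 10937 genes. Of 16 interferon receptor and signalling genes, 4 passed 2-fold towards LT-HSC, 1 towards CMP and 11 neither, with a median of 0.48. Over all genes 22.7% passed 2-fold towards LT-HSC and 28.1% towards CMP, so the higher share of this list was close to that of all genes. The highest were the negative regulator Socs1 (3.45) and the transcription factors Irf2 (1.40), Irf3 (1.10) and Irf7 (1.04), and the lowest the receptor chains Ifngr1 (−1.02) and Ifnar1 (−0.77), Stat2 (−0.44) and the kinase Jak2 (−0.42). Most of these values lean on few cells. The log2 ratio was 5.68 for Socs1 without CMP 4, 0.12 for Irf3 without LT-HSC 30 and 2.61 for Irf7 without CMP 1. It was −1.43 for Ifnar1 without LT-HSC 21, 1.18 for Stat2 without CMP 1 and 0.48 for Jak2 without CMP 3, so the last 2 turned round.

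Of 44 effector genes with at least 20 counts, 22 passed 2-fold towards LT-HSC and 5 towards CMP, with a median of 1.03 (1.04 with genes that lack a count in a pool set to their bound). These counts stand beside the same shares of all genes, 22.7% and 28.1%. The highest were the immunity-related GTPase gene Irgm2 (5.88), Ifi44 (4.96), Ifit1, which binds foreign RNA (4.94), and the antiviral GTPase gene Mx2 (4.65). The lowest were the ubiquitin ligase gene Trim25 (−3.65), Ifi27l2a (−1.37), the nucleic acid sensor gene Zbp1 (−1.33) and Samhd1, which degrades nucleotides (−1.29). Of these genes, Ifi44 had the highest level in LT-HSC, at 41.9 CPM, and Ifi27l2a in CMP, at 62.4 CPM. Single cells moved them too: the log2 ratio was 6.59 for Irgm2 without CMP 14, 6.72 for Ifit1 without CMP 19 and 3.49 for Mx2 without LT-HSC 24. It was −3.03 for Trim25 without CMP 19, −2.32 for Ifi27l2a without LT-HSC 23 and −0.34 for Zbp1 without CMP 1. The 4 highest rested on few CMP counts: 2 for Irgm2, 9 for Ifi44, 5 for Ifit1 and 3 for Mx2. They were counted in 11, 15, 7 and 5 of 34 LT-HSC. Without CMP 14 Irgm2 had 1 CMP count, as had Ifit1 without CMP 19, so the size of these ratios is uncertain.

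Enzymes that modify IFITM proteins, and membrane partners, lay on both sides. Of 10 with at least 20 counts, 1 passed 2-fold towards LT-HSC, 4 towards CMP and 5 neither, with a median of −0.71, where 22.7% and 28.1% of all genes passed it in these directions. The tetraspanin gene Cd81 was at 319 CPM in LT-HSC and 155 CPM in CMP (1.04). Next were the methyltransferase gene Setd7 (0.85), the protease gene Zmpste24 (0.42) and the tetraspanin gene Cd9 (−0.09). The lowest were the palmitoyltransferase genes Zdhhc3 (−2.57), Zdhhc7 (−1.71) and Zdhhc20 (−1.63) and the kinase gene Fyn (−2.29). Without the cell that moved each most they were at −3.96 (without LT-HSC 13), −2.97 (without LT-HSC 32), −3.05 (without LT-HSC 27) and −2.93 (without LT-HSC 9).

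Other genes of the CD225 family were near the floor. Of 10 present in the table, 4 had any count and 2 had at least 20. Tmem91 was at 5.54 CPM in LT-HSC and 0.71 CPM in CMP, but 85.5% of its counts in the LT-HSC pool were in LT-HSC 14, and without that cell the log2 ratio of 2.84 became 0.16. Ifitm6, which lies next to Ifitm3, was at 3.52 CPM in LT-HSC and 11.5 CPM in CMP, a log2 ratio of −1.69 that was −1.04 without CMP 24. Ifitm5, a bone cell gene at the other end of the cluster, and Ifitm10 had no count.

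**Figure D5:**
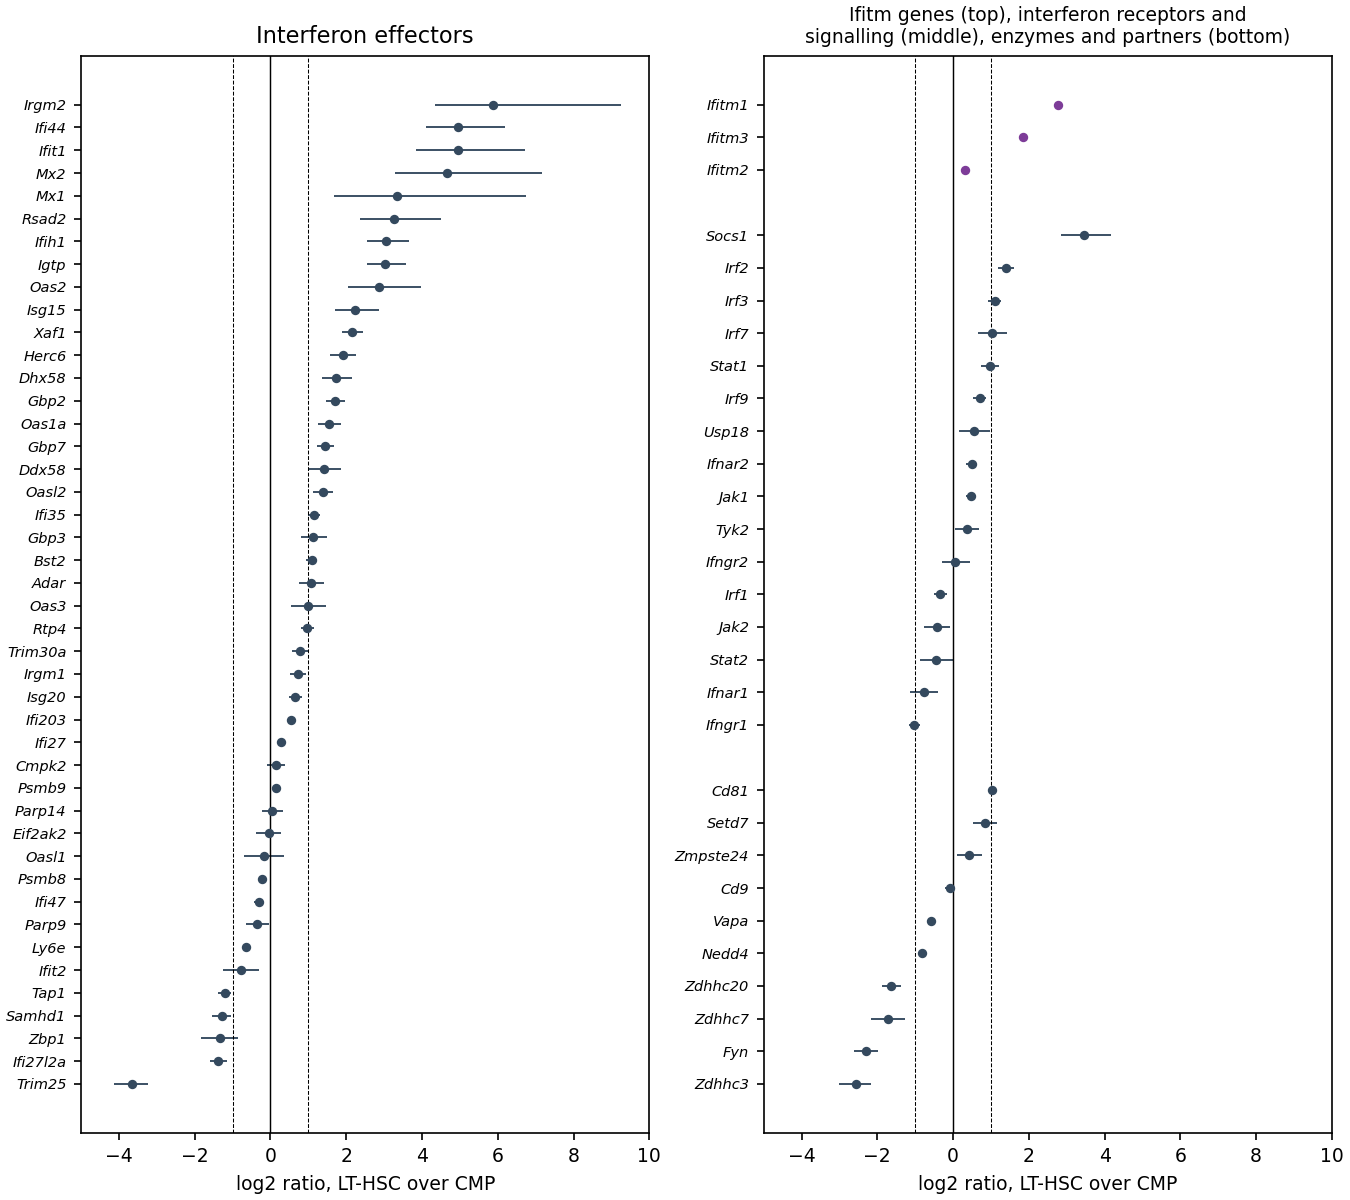
Log2 ratio of LT-HSC over CMP with its 95% counting interval for interferon effectors (left), and for the Ifitm genes, interferon receptors and signalling genes and enzymes and partners of IFITM proteins (right); dashed lines mark 2-fold. Effectors range from 5.88 (Irgm2) to −3.65 (Trim25), with wide intervals at the top, and the Ifitm intervals are narrower than their points.

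Genes around the cluster lay on both sides. Within 150 kb of the 3 genes, 11 other genes had at least 20 counts, of which 4 passed 2-fold towards LT-HSC, 2 towards CMP and 5 neither, beside 22.7% and 28.1% of all genes. The higher ones were Zfp941 (2.91, and at least 35.5-fold without CMP 14, which left no CMP count), B4galnt4 (2.05, and at least 12.7-fold without CMP 9, for the same reason), Bet1l (1.80) and Sigirr (1.64). Between were Rnh1 (0.97), Ptdss2 (0.69, and 2.24 without CMP 23), Pkp3 (0.66, and −0.73 without LT-HSC 33), Sirt3 (0.52) and Psmd13 (−0.04, and 1.12 without CMP 19). The lower ones were Ifitm6 and Nlrp6, whose 38 counts were all in CMP 14. Sirt3 and Psmd13 overlap on opposite strands, as do Bet1l and Ric8a, and where the counting did not use strand their reads cannot be told apart.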

How the data were processed

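Bone marrow cells were sorted singly and prepared by a modified Smart-seq2 protocol with an oligo(dT) primer carrying a cell barcode and a molecular identifier, followed by capture of 3′ ends, per the labels' protocols. The submitters' processing notes name mm10, TopHat2 2.0.12, HTSeq and Seurat 2.0, without roles. The authors deposited counts as whole numbers, in 1 table of gene symbols by cells; whether they are reads or molecules is not given in the sources used here, so intervals cover counting error only and are too narrow if they are reads. All 58 cells were used, with no filter and no doublet caller.

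Counts were summed per gate and given as CPM with exact Poisson intervals. Log2 ratios of LT-HSC over CMP had 0.5 added to each count and exact conditional binomial intervals, and genes entered with at least 20 counts over both pools. For a bound, 3 counts stood in for a pool at 0. Shares carry exact Clopper-Pearson intervals. Correlations are across cells and carry no p. Cells are not replicates, so no test was run. The 3 members and all lists were chosen with earlier results of these data known. Named genes were the members, the 5 most alike per member, up to 4 highest and 4 lowest per list, and neighbours within 150 kb; Akap5, Tmem176a, Cd63 and S100a8 were chosen after their values were seen. Alternatives were other scalings, thinning, an added count of 1, other minimum counts, and leaving out shallow cells, blocks or each cell in turn. Correlations without the farthest cells or the 3 abundant effectors, and values without CMP 19, were chosen after seeing the data. The ratio was checked on simulated counts that held counting error alone, without variation between cells. That check therefore does not bear on the spread between the cells measured here. Python 3.11.15 with numpy 2.4.6, pandas 2.3.3, scipy 1.17.1 and Biopython 1.88 was used.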

Additional observations from a re-analysis of the deposited data

How the results depend on the processing

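The direction of the pooled log2 ratios of Ifitm1, Ifitm2 and Ifitm3 and of the effector median was the same under each alternative run. Taking the mean of the cells' CPM gave 3.43 for Ifitm1 and 1.93 for Ifitm3. Median-of-ratios scaling gave 2.92, 0.47 and 2.01 for Ifitm1, Ifitm2 and Ifitm3, and moved the median of all genes by 0.15. A total without ribosomal protein genes gave 0.37 for Ifitm2 and 1.90 for Ifitm3. Without shallow cells Ifitm1 was at 2.69, and after thinning at 3.16. Cells without an Xist count gave 3.73, 1.07 and 2.30, with 1.85 for the effectors, while the median of all genes moved by 1.04. Without CMP 1 and 2 the ratios were 2.61, 0.20 and 1.77. LT-HSC 1 to 16 alone gave 3.69, 0.24 and 2.34, and LT-HSC 17 to 34 alone 1.83 for Ifitm1 and 1.51 for Ifitm3. The effector median was 1.04 with LT-HSC 1 to 16 alone and 0.56 with LT-HSC 17 to 34 alone. The cause of these shifts was not tested. Leaving out each cell in turn gave 2.64 to 3.49 for Ifitm1, 0.24 to 0.37 for Ifitm2, 1.78 to 1.97 for Ifitm3 and 0.82 to 1.13 for the effectors. No paired analysis was possible because the shared numbers only name cells and each gate was treated as 1 sample without a test. Depth limits the low Ifitm1 levels in CMP, where the lowest cell held 5 counts.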
